A study of Mus musculus with 4 samples.

Results

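The genes Vim, Tagln, Tagln2, Lgals1, Sparc, Vcan, Bgn, Postn and Tgfbi encode parts of the cytoskeleton and of the extracellular matrix that are used as marks of mesenchymal cells. They were taken by name from a table of cluster marker genes, in every cluster that lists them, and are 9 of the 1197 genes in that table. The study took mouse embryonic stem cells through a directed cardiac differentiation and profiled single cells by droplet sequencing. The 4 libraries were Brm knockout mesoderm, wild-type mesoderm, Brm knockout cardiac progenitors and wild-type cardiac progenitors, with 1 library in each group. The cells of all 4 libraries carry a BRG1 with a triple FLAG tag, and those of the knockout libraries also lack BRM, an alternative ATPase of the BAF chromatin remodelling complex. The sources used here do not say whether the knockout is a single clone.

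Mesenchymal cells lie apart from each other in a matrix that they secrete, and they change shape and move through intermediate filaments and contractile actin. In the embryo they arise when cells leave an epithelium, as in gastrulation and in the forming heart valves and epicardium. The matrix consists of collagen fibres, proteoglycans that hold water and growth factors, and matricellular proteins that bind both the fibres and cell surface receptors.

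The authors' deposited table sets each of 15 numbered clusters against all other cells, and its columns name no library. The sources used here do not say which libraries it covers, so genotypes and stages were not compared, and no value below has a replicate, an error or a test. Depth and cell numbers are unknown. Smarca2 and Smarca4, which encode BRM and BRG1, had 0 entries, which checks no label. The clusters were formed from the expression of these and other genes, so a gene's place in them is a description. An entry gives a fold change, the cluster over all other cells, and the percent of cells with the gene detected inside and outside the cluster. The smallest fold in the table was 1.65, and the larger detection percent of an entry was at least 25.1%. The detection percents gave each cluster's share of all cells, and with it each fold was restated as a level over the mean of all cells, so that the clusters of a gene share 1 scale.

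Clusters were identified by fixed markers. Cluster 2 was cardiomyocyte-like, with 9 of 10 markers higher, among them the cardiac actin Actc1. Clusters 1 and 4 were neural-progenitor-like with 5 of 10 markers higher each, cluster 12 was neuron-like with 6 of 8, and cluster 8 was pluripotent-like with 5 of 7. Cluster 12 also had 3 of the 10 neural progenitor markers higher, Lhx5, Fezf2 and Crabp2. Cluster 2 also had 3 of the 11 fibroblast or smooth muscle markers higher, Acta2, Myl9 and Cnn1. Each bears the name of the type with more markers higher. Clusters 0 and 7 were nascent-mesoderm-like with 3 and 5 of 12, and cluster 14 was endoderm-like with 5 of 11, including Ttr and Sox17. Cluster 3 was led by Krt8 and T, cluster 5 by Sostdc1 and Col9a1, cluster 6 by Pcp4l1, cluster 9 by Igfbp7 and Tagln, cluster 10 by Col3a1, cluster 11 by Col3a1 and Col2a1, and cluster 13 by Myl7 beside mitochondrially encoded genes. These clusters are called by number here. Of them, clusters 3, 5, 10 and 13 had at least 3 markers of a type, and cluster 13 had 9 of 10 cardiomyocyte markers. Cluster 3 had 4 of the 12 nascent mesoderm markers, T among them, which was more than cluster 0 had. Cluster 0 was led by Crabp1 and Tcf15, which are not on that list, so its name rests on few markers. Clusters 3, 5, 10 and 13 were left unnamed after their values were seen. The grounds were that keratins led cluster 3, Myl9 was lower in clusters 5 and 10, and mitochondrially encoded genes ranked high in cluster 13. The 11 fibroblast or smooth muscle markers had 7 members in the table, of which the 3 collagens Col3a1, Col1a2 and Col1a1 were higher in clusters 5 and 10, where the contractile marker Myl9 was lower. Myl9 was also listed lower in clusters 0, 1, 3, 4, 6, 7, 8, 11 and 12. Its low level therefore does not set clusters 5 and 10 apart.

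The 9 genes had 55 entries, 25 higher and 30 lower, in a table with 1305 higher and 907 lower entries. Their median absolute fold was 2.45, against 2.05 over all entries. The label of mesenchymal genes described only some of them. Bgn, Tgfbi and Postn were listed only in clusters 5, 9 and 10. Tagln2 was highest in the keratin cluster 3, Sparc in the endoderm-like cluster 14, and Vim was higher in the neural-progenitor-like cluster 1, in cluster 6 and in the neuron-like cluster 12 as well as in clusters 9 and 10. Of the 9 genes, 5 were higher in some clusters and lower in others, as were 162 of the 1197. Tagln2 had entries in 12 clusters, Vim in 10, and Lgals1 and Vcan in 9 each, whereas 2.17% of all table genes had entries in 9 or more and the median gene in 1. These genes were in 27.8% (Vcan) to 49.4% (Vim) of all cells, so the detection threshold let them be listed either way. It left rarely detected genes hardly any way to be listed lower, and the contrast follows in part from that filter. The 9 genes were also chosen with earlier results known.

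**Figure D1:**
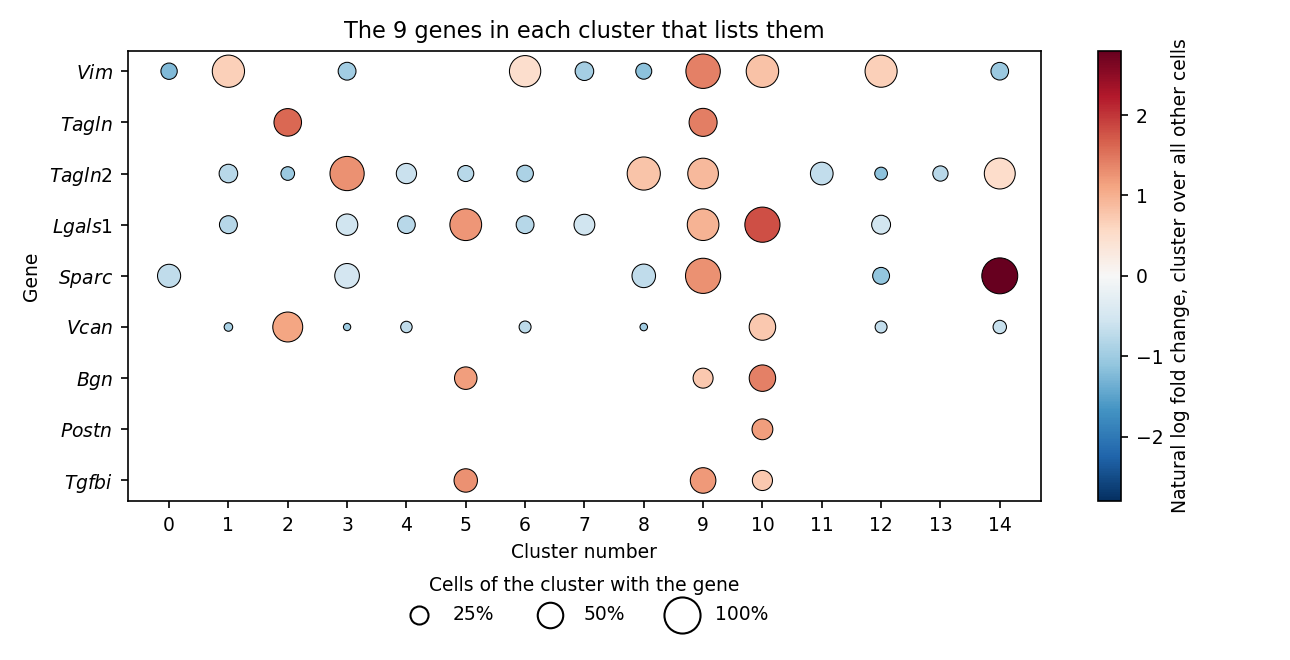
Fold change and detection of the 9 genes in each of 15 clusters, from the authors' deposited table. The x axis is the cluster number, the colour is the natural log fold change of the cluster over all other cells (red higher, blue lower) and the area of a dot is the percent of the cluster's cells with the gene; an empty place means that the table has no entry. Columns 9 and 10 hold 7 and 6 red dots and no blue one.

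Vim encodes vimentin, the intermediate filament protein of mesenchymal cells, which neural progenitors also make. It was highest in cluster 9, where the authors' deposited table gave it in 90.9% of cells inside against 48.0% outside and 4.10-fold higher. That came to 3.73 times the mean of all cells. Cluster 10 stood at 2.21 times the mean, the neuron-like cluster 12 at 1.90, the neural-progenitor-like cluster 1 at 1.72 and cluster 6 at 1.57. Vim was lowest in the nascent-mesoderm-like cluster 0, with 20.5% of cells inside against 54.7% outside per the authors' deposited table and 0.326 times the mean. The pluripotent-like cluster 8 followed at 0.332, the endoderm-like cluster 14 at 0.356, cluster 7 at 0.401 and the keratin cluster 3 at 0.403 times the mean. Highest and lowest levels differed 11.4-fold. The neighbours 0 and 8, and 7 and 3, differ by little, and no spread is at hand to part them. Clusters 2, 4, 5, 11 and 13 had no entry, and pooled they stood at 0.914 times the mean with Vim in 55.0% of cells.

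Tagln encodes transgelin, or SM22 alpha, an actin-binding protein of smooth muscle and of early heart muscle. It had 2 entries. In the cardiomyocyte-like cluster 2 it was in 58.3% of cells inside against 10.6% outside and 5.03-fold higher, and in cluster 9 it was in 60.3% against 15.1% and 4.18-fold higher, per the authors' deposited table. On the common scale cluster 9 stood at 3.79 and cluster 2 at 3.33 times the mean of all cells. The order of these levels was thus the reverse of that of the folds, because cluster 2 is large and its own cells are left out of its comparison. With cluster 2 taken out of the reference, cluster 9 stood at 5.72 times the mean of the remaining cells. Together these clusters held 56.1% of all cells that detected Tagln and 15.9% of all cells. The other 13 clusters pooled detected it in 8.64% of cells and stood at 0.542 times the mean of all cells. With each of them just at the fold threshold, 1.65-fold lower, they would stand at 0.631. Some of them thus lay lower than that without an entry, and the detection threshold may have kept such entries out.

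Tagln2 encodes transgelin 2, a relative of transgelin that many cell types make. Its clusters differed from those of Tagln. It was highest in cluster 3, in 89.8% of cells inside against 37.7% outside per the authors' deposited table, at 2.84 times the mean of all cells. Cluster 9 stood at 2.35, the pluripotent-like cluster 8 at 2.05 and the endoderm-like cluster 14 at 1.69 times the mean. The other 8 entries were lower. The neuron-like cluster 12 was lowest at 0.318 times the mean, and the cardiomyocyte-like cluster 2 came next at 0.387, where the authors' deposited table gave Tagln2 in 14.3% of cells inside against 47.3% outside. In cluster 2, then, Tagln was higher and Tagln2 lower, while both were higher in cluster 9. Clusters 6, 13, 5, 1, 11 and 4 lay between 0.428 and 0.558 times the mean. In cluster 13 Tagln2 had the largest fold of the 24 genes listed lower, 2.18. Cluster 11 detected it in 39.5% of cells inside against 43.2% outside and yet listed it 2.00-fold lower per the authors' deposited table, so that detection differed little beside the fold. This was not particular to Tagln2. Cluster 11 listed Tpm1 4.04-fold lower at 63.7% against 63.0% and Myl9 3.65-fold lower at 23.0% against 27.2%, per the authors' deposited table. Krt8, 3.87-fold lower there, did differ in detection, at 10.1% against 30.6%, per the authors' deposited table.

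Vim and Tagln2 both had entries in 7 clusters, and in 6 of them they pointed opposite ways. Vim was higher and Tagln2 lower in clusters 1, 6 and 12, and Vim was lower and Tagln2 higher in clusters 3, 8 and 14. Cluster 9 was the exception, with both higher. Over the 36 pairs of the 9 genes, 33 pairs shared at least 1 cluster, and their 94 shared entries pointed the same way 68 times and opposite ways 26 times. Opposite entries occurred in 11 pairs, and the other 22 pairs with shared clusters had none. Tagln, Bgn, Postn and Tgfbi were in only 16.6%, 8.25%, 4.28% and 8.79% of all cells. The detection threshold thus left them hardly any way to be listed lower. The counts of directions and of pairs without opposite entries follow in large part from that filter.

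**Figure D2:**
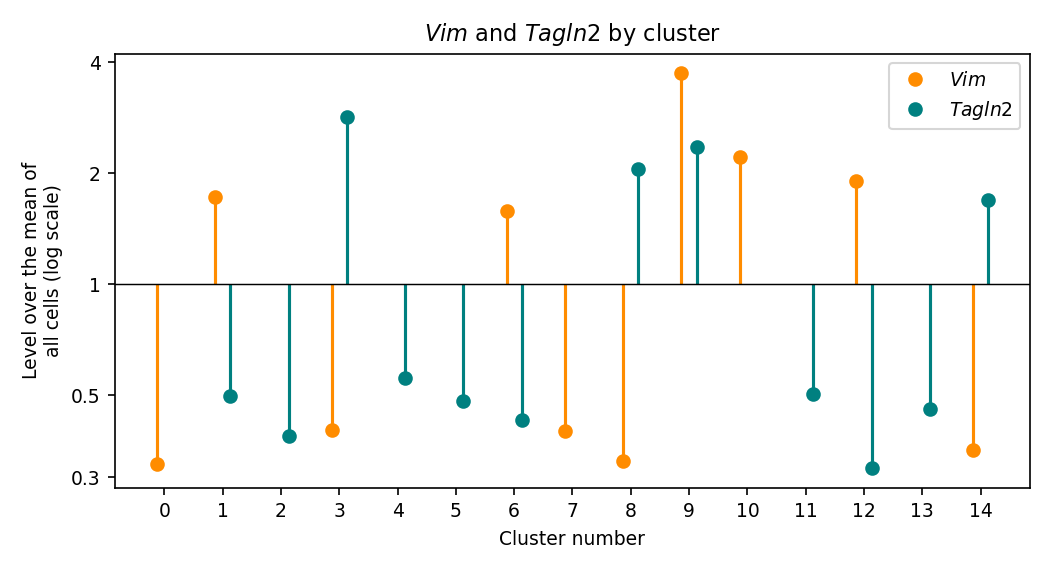
Level of Vim and Tagln2 over the mean of all cells (y axis, log scale) by cluster number (x axis). Points stand for clusters with an entry and lines run to 1, the mean of all cells; the genes lie on opposite sides in clusters 1, 3, 6, 8, 12 and 14 and on the same side in cluster 9.

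Lgals1 encodes galectin 1, a lectin that cells secrete and that binds sugars on matrix proteins and receptors. It was highest in cluster 10, in 94.9% of cells inside against 38.7% outside and 6.13-fold higher per the authors' deposited table, which ranked it the third gene of that cluster by fold. Cluster 10 stood at 5.33 times the mean of all cells, cluster 5 at 2.84 and cluster 9 at 2.51. The 6 lower entries lay close together, between 0.470 times the mean in cluster 6 and 0.602 in cluster 3. They took in the neural-progenitor-like clusters 1 and 4, the neuron-like cluster 12 and the nascent-mesoderm-like cluster 7. Clusters 5, 9 and 10 held 29.4% of the cells that detected Lgals1 and 14.7% of all cells. The pooled clusters with no entry stood at 0.721 times the mean.

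Sparc encodes osteonectin, a collagen-binding glycoprotein that basement membranes and bone matrix hold. Its level in the endoderm-like cluster 14, 15.5 times the mean of all cells, was the highest computed for any of the 9 genes. Any constant added before taking logs understates the levels of rarely detected genes such as Postn, so this order across genes is not firm. The authors' deposited table gave Sparc in cluster 14 in 99.1% of cells inside against 56.7% outside and 16.2-fold higher, the third highest fold of 314 genes. The genes above it in that cluster included Col4a1, a basement membrane collagen, at 22.0-fold per the authors' deposited table. Cluster 9 followed at 3.35 times the mean, with Sparc in 95.0% of cells inside against 55.6% outside per the authors' deposited table. The neuron-like cluster 12 was lowest at 0.333 times the mean, and clusters 8, 0 and 3 stood at 0.511, 0.530 and 0.622. Cluster 14 holds 0.291% of all cells, so that it contained only 0.507% of the cells that detected Sparc. Sparc was in 56.8% of all cells, the widest detection of the 9 genes, and the 9 clusters with no entry detected it in 62.5% of cells when pooled. The collagen-led clusters 5 and 10 had no entry for it.

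Vcan encodes versican, a large proteoglycan of loose matrix that the embryonic heart makes. Its highest level was in the cardiomyocyte-like cluster 2, in 68.8% of cells inside against 21.9% outside per the authors' deposited table, at 2.39 times the mean of all cells. Cluster 10 stood at 2.05 times the mean. Cluster 2 held 31.3% of all cells that detected Vcan, with 12.6% of all cells. The 7 lower entries lay between 0.390 and 0.527 times the mean. The lowest was cluster 3, with Vcan in 4.1% of cells inside against 30.5% outside per the authors' deposited table, and the pluripotent-like cluster 8 stood beside it at 4.4% against 29.3%. The neural-progenitor-like clusters 1 and 4 detected it in 5.6% and 10.1% of cells inside, against 31.2% and 29.5% outside, per the authors' deposited table. The entry for cluster 14 had an adjusted p of 1 over cells per the authors' deposited table. Clusters 0, 5, 7, 9, 11 and 13 had no entry, and pooled they detected Vcan in 38.7% of cells.

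**Figure D3:**
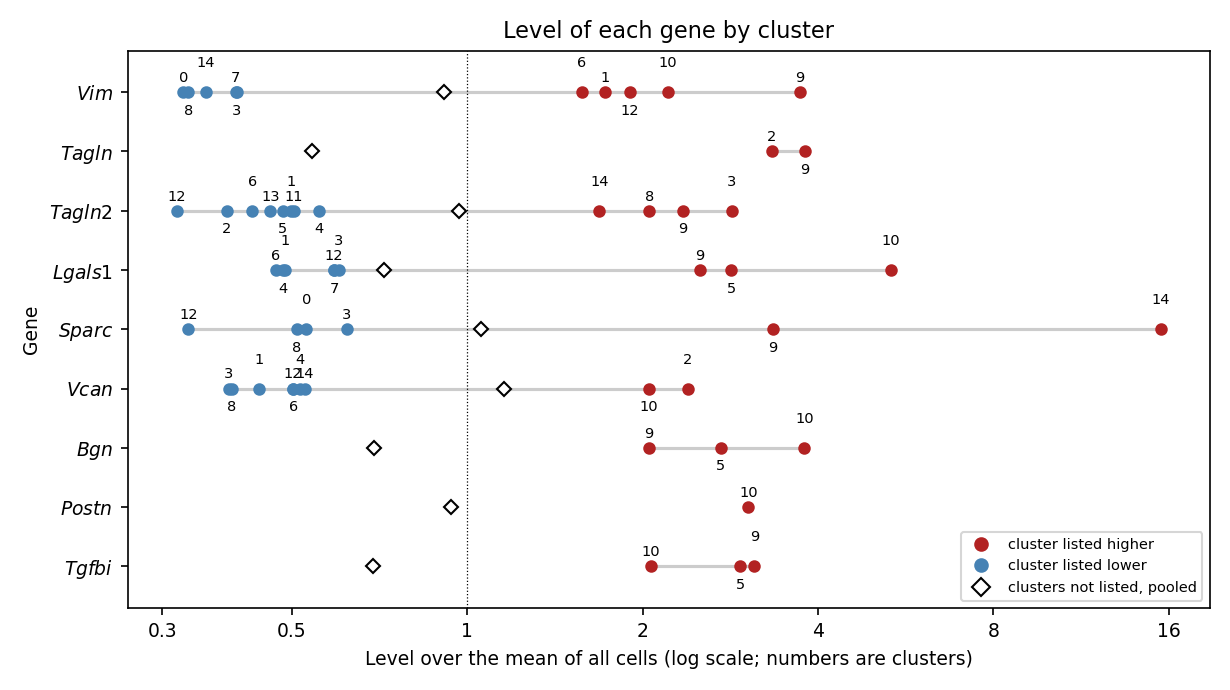
Level of each of the 9 genes over the mean of all cells (x axis, log scale), with a point for each cluster that has an entry and its number beside it. Open diamonds are the pooled clusters with no entry and the dotted line is the mean of all cells. Sparc reaches 15.5 in cluster 14, and no other point exceeds the 5.33 of Lgals1 in cluster 10. Any constant added before taking logs understates rarely detected genes, so levels of different genes are not on equal terms.

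Bgn, Tgfbi and Postn were rare outside a few clusters. Bgn encodes biglycan, a small leucine-rich proteoglycan that binds collagen, and Tgfbi encodes a secreted adhesion protein that TGF-beta induces. Both had exactly 3 entries, higher in clusters 5, 9 and 10. Because they moved together, the bases just before their transcription starts are shown, from RefSeq's table on GRCm38.p6, a build other than the mm9 that the submitters' processing notes name. The Bgn window is chrX:73483351-73483600 and the Tgfbi window chr13:56609336-56609585, both on the plus strand and 250 bases long. Capitals mark matches to the GC box GGGCGG on either strand.
Bgn: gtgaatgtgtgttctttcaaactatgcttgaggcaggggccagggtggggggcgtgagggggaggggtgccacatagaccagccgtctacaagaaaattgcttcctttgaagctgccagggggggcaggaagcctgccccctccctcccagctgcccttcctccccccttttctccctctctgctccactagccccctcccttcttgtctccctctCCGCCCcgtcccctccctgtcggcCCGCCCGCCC
Tgfbi: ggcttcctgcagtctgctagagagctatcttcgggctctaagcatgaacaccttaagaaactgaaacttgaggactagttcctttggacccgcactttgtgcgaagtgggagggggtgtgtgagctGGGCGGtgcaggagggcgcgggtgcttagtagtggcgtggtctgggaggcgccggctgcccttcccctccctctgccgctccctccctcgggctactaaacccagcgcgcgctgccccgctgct
Bgn held 3 GC box matches, of which the pair at bases -10 and -6 before the start overlap, and Tgfbi held 1 at base -124. The letters occur in 32.7% of the 32851 promoter windows of the same length, so they do not set these genes apart. Searched were 8 windows of 7 of the 9 genes, and those of Tagln and Lgals1 were not used here. The GC box was found for 4 of the 7 genes (Bgn, Tagln2, Tgfbi, Vcan), and the TATA box TATAAA for 2, Vim and Postn, against 12.4% of all windows. The AP-1 motif TGANTCA and the E-box CACCTG, which Snail and Zeb factors bind, were in none of the 8 windows, against 6.75% and 17.2% of all. The TEAD motif GGAATG was in the Tagln2 window alone, against 12.6% of all. Both strands were searched for each motif, and a match is letters in this window and not a shown binding site.

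In cluster 10, Bgn was in 53.7% of cells inside against 6.9% outside and 4.14-fold higher per the authors' deposited table, or 3.79 times the mean of all cells. Cluster 5 stood at 2.72 times the mean, with Bgn in 38.9% of cells inside against 5.4% outside per the authors' deposited table. Cluster 9 stood at 2.05 times the mean, with 30.7% inside against 7.5% outside per the authors' deposited table. Clusters 5, 9 and 10 held 71.2% of all cells that detected Bgn, although they made up 14.7% of all cells. Cluster 5 alone, the largest of them, held 40.1%.

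Tgfbi had another order over the same clusters. It stood at 3.11 times the mean of all cells in cluster 9, at 2.94 in cluster 5 and at 2.07 in cluster 10, so that cluster 10 was highest for Bgn and lowest for Tgfbi. By the deposited fold, cluster 5 came before cluster 9, at 3.60-fold against 3.35-fold higher per the authors' deposited table, and by detection cluster 9 came first, so these neighbours cannot be put in order. The authors' deposited table gave Tgfbi in 50.2% of cells inside against 7.4% outside cluster 9, in 42.1% against 5.7% for cluster 5 and in 31.1% against 8.1% for cluster 10. The 3 clusters held 69.6% of all cells that detected it. The remaining 12 clusters pooled detected Tgfbi in 3.12% of cells and Bgn in 2.78%.

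Postn encodes periostin, a matricellular protein of valve, periosteum and fibroblast matrix that is a relative of the Tgfbi product. It had 1 entry, in cluster 10, in 33.3% of cells inside against 3.4% outside and 3.24-fold higher per the authors' deposited table. Cluster 10 stood at 3.04 times the mean of all cells. It held 22.8% of all cells that detected Postn and 2.93% of all cells. The other cells with Postn lay in clusters that had no entry for it. Postn was in 4.28% of all cells, the lowest detection of the 9 genes.

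**Figure D4:**
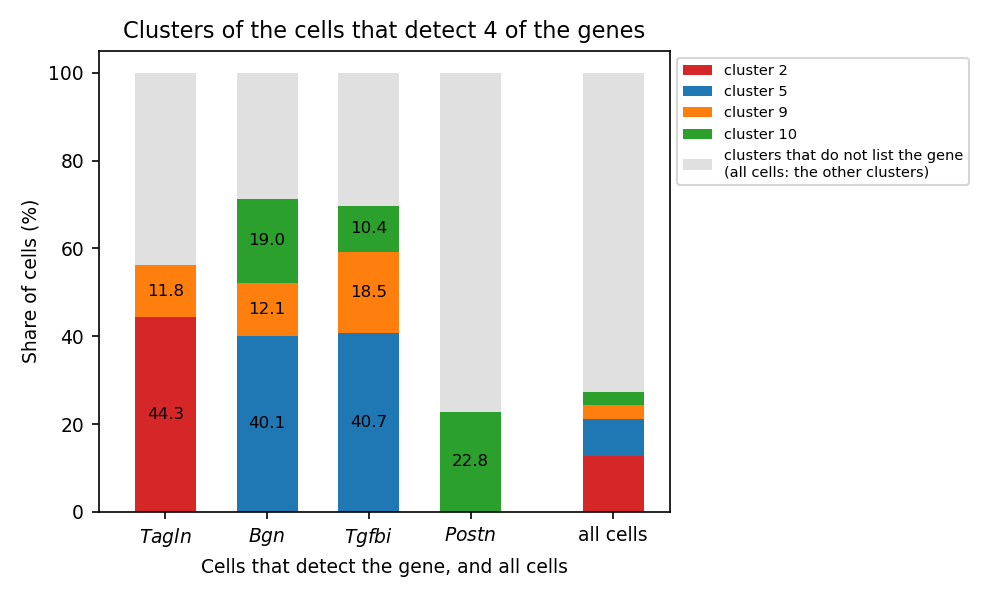
Share of the cells that detect Tagln, Bgn, Tgfbi or Postn (y axis, percent) that lies in each cluster listing the gene higher, worked out from detection and cluster size, with the make-up of all cells in the last bar. Grey is the remainder; clusters 5, 9 and 10 hold 71.2% of the cells with Bgn and 69.6% of those with Tgfbi, against 14.7% of all cells.

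Clusters 9 and 10 brought most of the genes together. Cluster 9 listed 7 of the 9 as higher and none lower, where 9.61% of all table genes were listed higher and 4.01% lower. The missing genes were Vcan and Postn. Cluster 10 listed 6 as higher and none lower, where 6.85% of table genes were listed higher and 4.09% lower, and it lacked Tagln, Tagln2 and Sparc. Clusters 9 and 10 shared Vim, Lgals1, Bgn and Tgfbi. Entries for Tagln, Tagln2 and Sparc stood in cluster 9 and not in cluster 10, and those for Vcan and Postn in cluster 10 and not in cluster 9, a difference between entries that was not tested. Cluster 5 listed 3 higher (Lgals1, Bgn and Tgfbi; 4.09% of table genes) and Tagln2 lower (4.26%). The median natural log fold change of the members listed higher in cluster 9 was 1.21, against 0.68 for all genes listed higher there. The genes were chosen with these entries known, so the counts describe the choice as much as the clusters.

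**Figure D5:**
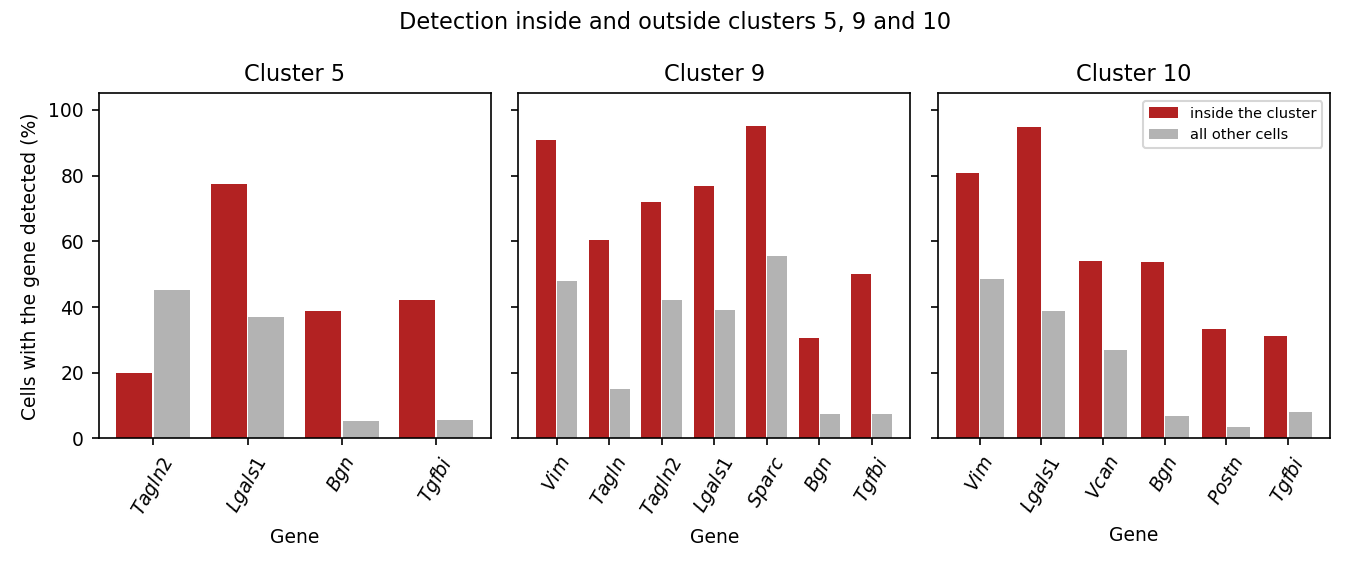
Percent of cells with each gene (y axis) inside clusters 5, 9 and 10 (red) and in all other cells (grey), for the genes that each cluster lists, from the authors' deposited table. Detection is higher inside for all genes in clusters 9 and 10; in cluster 5 Tagln2 is at 19.8% inside against 45.3% outside.

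The remaining clusters listed more of the genes lower than higher, or as many. The keratin cluster 3 listed 4 lower (3.01% of table genes), Vim, Vcan, Sparc and Lgals1, and Tagln2 higher (5.26%). The neuron-like cluster 12 also listed 4 lower (3.84%), Sparc, Tagln2, Vcan and Lgals1, with Vim higher (7.77%). Clusters 1 and 6 had the same set: Vcan, Tagln2 and Lgals1 were lower (2.59% and 2.17% of table genes) and Vim was higher (3.93% and 2.51%). Cluster 4 listed those 3 genes lower (2.42%) without an entry for Vim. The pluripotent-like cluster 8 listed Vim, Vcan and Sparc lower (4.26%) and Tagln2 higher (5.51%). Nascent-mesoderm-like clusters 0 and 7 each listed 2 lower (3.76% and 2.84%), Vim with Sparc in cluster 0 and Vim with Lgals1 in cluster 7. Cluster 14 listed Sparc and Tagln2 higher (26.2%) and Vim and Vcan lower (9.19%), and clusters 11 and 13 listed Tagln2 alone, as lower (1.59% and 2.01%). The exception was the cardiomyocyte-like cluster 2, with Tagln and Vcan higher (22.7%) and Tagln2 lower (25.7%).

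For 5 of the genes a missing entry is itself a limit on the level. Vim, Sparc, Lgals1, Tagln2 and Vcan were in 49.4%, 56.8%, 40.4%, 43.1% and 27.8% of all cells, above the detection threshold, so that a cluster with no entry differed by less than 1.65-fold from the other cells or missed the table's p-value threshold. Tagln2 had no entry in clusters 0, 7 and 10 only, and these stood at 0.970 times the mean of all cells when pooled. RNA free in the droplets can also give a low detection in cells that do not make a gene, and its part was not tested; the lowest detection in any listed cluster was 4.1% for Vcan, 12.4% for Tagln2, 19.6% for Vim, 21.9% for Sparc and 24.1% for Lgals1. For Tagln, Bgn, Postn and Tgfbi, in 16.6%, 8.25%, 4.28% and 8.79% of all cells, a missing entry may only mean that too few cells had the gene.

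Genes with the most similar pattern were found by the cosine of the signed log fold changes over the 15 clusters, with 0 where a gene had no entry. Cosines are given as descriptions, since all clusters share most of the cells they are set against. For Bgn they were Mfap4 at 0.999, Fam176b at 0.977 and Col1a1 at 0.975, and for Tgfbi they were Ppic at 0.987, Fam176b at 0.955 and Mfap4 at 0.931. All 4 of these genes were listed for clusters 5, 9 and 10 and no other. Lgals1 was nearest to Mfap4, a microfibril protein gene (0.816), Col1a1 (0.814) and Fam176b (0.806), by its higher entries, while none of the 3 had its lower ones. Tagln2 was nearest to the epithelial keratin genes Krt8 (0.747) and Krt18 (0.686) and to Prdx1 (0.680). It shared 8 clusters with each keratin, all in the same direction. Vim was nearest to Cdkn1c (0.824) and Pfn2 (0.812), each with entries in 7 clusters that all matched Vim in direction, and to Gabarap (0.795). Sparc was nearest to Serpinh1, the collagen chaperone (0.832), Apoe (0.821) and Lgmn (0.820), and Vcan to Mmd (0.715), Gpx3 (0.701) and Idh2 (0.696). Sparc shared 4 clusters with Serpinh1, 3 with Apoe and 2 with Lgmn, all in the same direction. Vcan shared 4 clusters with Mmd and 3 with Idh2, all in the same direction. With Gpx3 it shared 8, of which 7 were in the same direction. Among the 9 genes themselves, Bgn and Tgfbi were the most alike at 0.915 and Vim and Tagln2 the least at -0.33.

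Other matrix genes were counted from fixed lists. Of 21 collagens, 9 were in the table, with 19 higher and no lower entries: 6 in cluster 10 (6.85% of table genes listed higher), 5 in cluster 5 (4.09%), 4 in cluster 11 (0.835%), 2 in cluster 9 (9.61%) and 2 in cluster 14 (26.2%). The count in cluster 14 is near the share over all genes. Outside cluster 10, Col3a1 was in 7.1% and Col2a1 in 15.7% of cells per the authors' deposited table. Genes detected so rarely could hardly be listed lower under the detection threshold, so the lack of lower entries is not a finding about collagens. Col3a1, a fibrillar collagen, was 8.63-fold higher in cluster 10 and 4.30-fold in cluster 5, and Col9a1 of cartilage was 4.56-fold higher in cluster 5, per the authors' deposited table. Cluster 11 thus had collagens higher with no matrix member of the 9 genes listed. Of 43 symbols for matrix glycoproteins and proteoglycans, 18 were in the table, with 25 higher and 10 lower entries. Cluster 10 had 7 higher (6.85% of table genes) and cluster 9 had 6 (9.61%), led by Mfap2 at 4.15-fold in cluster 10 and Igfbp7 at 5.53-fold in cluster 9 per the authors' deposited table. The laminin genes Lamc1, Lama1 and Lamb1 of basement membrane were 8.26-fold, 7.82-fold and 6.88-fold higher in cluster 14 per the authors' deposited table, the cluster where Sparc was highest. Cluster 14 had 5 of these 18 genes higher and 2 lower, beside 26.2% and 9.19% of table genes. Its higher count is thus near the share over all genes. Mfap2 was 2.54-fold lower there, in 1.8% of cells inside against 27.5% outside, per the authors' deposited table. Median natural log fold changes were 1.28 for the collagens and 1.09 for the glycoproteins listed higher in cluster 10, against 0.77 for all genes listed higher there.

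Of 40 symbols on the list of actin-binding and smooth muscle genes, 23 were in the table, with 41 higher and 55 lower entries. Cluster 9 had 12 higher and none lower, beside 9.61% and 4.01% of table genes, among them Anxa2 at 3.59-fold, the smooth muscle actin Acta2 at 3.52-fold and Tmsb4x at 3.36-fold, per the authors' deposited table. Cluster 10 had 5 higher and 3 lower, beside 6.85% and 4.09%, with the myosin light chain Myl9 4.12-fold and the tropomyosin Tpm1 3.51-fold lower per the authors' deposited table. Cluster 2 had 12 higher and 4 lower, where 22.7% of table genes were listed higher and 25.7% lower. Acta2 and Myl9 were 23.1-fold and 17.5-fold higher there, and the cytoplasmic actins Actg1 and Actb 2.21-fold and 2.07-fold lower, on the side of Tagln2, per the authors' deposited table. Because cluster 2 is 12.6% of all cells, its high contractile genes raise the mean that other clusters are set against. Of 14 epithelial genes, 8 were in the table. All 8 were higher in cluster 3 (5.26% of table genes), with 7 in cluster 14 (26.2%) and 5 in cluster 8 (5.51%), the clusters beside cluster 9 in which Tagln2 was higher. Krt8 was 8.87-fold higher in cluster 3 and Epcam 4.04-fold higher in cluster 8 per the authors' deposited table.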

How the data were processed

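Per the submitters' processing notes, the reads went through Cell Ranger and Seurat on mm9. The sources used here do not state versions, cell filters, doublet handling or clustering settings. The authors deposited 1 table of 2212 entries that set a cluster beside the rest of the cells, per the file header. The authors' deposited fold changes are on the natural log scale by their column name, and the natural base held for 6 of 6 genes on which it could be tested, base 2 for 3 and base 10 for 0. The detected share inside and outside is a fraction in the authors' deposited table and is printed as a percent. Its p-values compare cells, which are not replicates, and served only as a filter in 1 alternative. Both the p-value and its adjusted form are the authors' deposited values.

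Cluster sizes were solved by least squares from 407 genes listed for 2 or more clusters, on the ground that the share of all cells with a gene must come out equal from each. Their sum was 100.002%, and the residuals had an SD of 0.0228 percentage points. A fold F of a cluster with size s became the level F/(1 - s + sF) over the mean of all cells. Any constant added before taking logs stays in folds and levels and understates those of rarely detected genes. The steps were tested on simulated data with known sizes and levels. These data had no sampling noise, and their known levels held the added constant. The test therefore checks the calculation and not how near the levels are to those in the cells.

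The 9 genes, the lists and the cell type markers were chosen with earlier results of these data known. Named are the 9 genes, up to 3 genes of a list in a cluster with at least 3 members in 1 direction, and the 3 nearest genes by cosine of each member with at least 3 entries, and the text prints part of these. Cluster names needed at least 3 markers listed higher, no leading gene against them and, a condition added after the values were seen, no marker of that type listed lower. Python 3.11.15 was used with pandas 2.3.3, numpy 2.4.6, matplotlib 3.10.9 and scipy 1.17.1. Alternatives took other thresholds for fold, detection and p-value, other sizes, another reference and another measure of likeness. The planned design had no test, and genotypes and stages were not compared.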

Additional observations from a re-analysis of the deposited data

How the results depend on the processing

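Of the 25 higher and 30 lower entries, 20 and 18 met an absolute natural log fold of 0.75 or more, and 14 and 7 one of 1 or more. With a larger detection share of at least 50%, 20 higher and 8 lower entries were left. An adjusted p under 1e-10, a detection difference of at least 10 percentage points and, chosen after seeing the data, leaving out clusters 13 and 14 moved neither count by over 1.5 times. Ranking by detection in place of fold gave the same highest cluster for 8 genes and cluster 9 for Tgfbi. Sizes solved without the 9 genes or by least absolute deviations moved no held share by over 1.5 times. Taking cluster 2 out of the reference multiplied levels by 1.51 for Tagln, 1.25 for Vcan and 0.919 for Tagln2, bringing Tagln in cluster 9 to 5.72, and reversed none of the 20 levels. Likeness by shared cluster and direction kept all 3 named genes for Bgn and Tgfbi, 2 for Vim, 1 each for Sparc and Tagln2, and 0 each for Lgals1 and Vcan. With an absolute natural log fold of 1 or more, higher entries were 9 for collagens, 11 for glycoproteins, 5 for collagen processing, 0 for matrix receptors, 14 for actin-binding genes, 2 for transition factors, 4 for TGF-beta genes and 10 for epithelial genes; lower entries were 1 for glycoproteins, 0 for collagen processing, 24 for actin-binding genes and 7 for TGF-beta genes. The cause of these shifts is the stricter threshold itself. No paired analysis was possible because each group has 1 library and the table names none. Depth is unknown, so rarely detected genes such as Postn may have missed the thresholds of the table in further clusters.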

Other observations

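Genes of the TGF-beta and BMP pathways were also listed in several of these clusters. Of 23 symbols on a fixed list, 10 were in the table, with 19 higher and 13 lower entries. Cluster 9 had 6 of them higher and none lower, where 9.61% of table genes were listed higher. There the pseudoreceptor gene Bambi was 4.06-fold, the ligand genes Tgfb1 2.79-fold and Tgfb2 2.49-fold higher per the authors' deposited table. Cluster 10, which listed 6 of the 9 genes higher, had 0 higher and 0 lower entries from this list. Of all table genes, 6.85% were listed higher and 4.09% lower in that cluster. Clusters 0, 7 and 8, where Vim was low, each had Id1, Id2 and Id3 lower (3.76%, 2.84% and 4.26% of table genes listed lower), with Id2 in 4.1%, 2.7% and 4.5% of cells inside against 39.3%, 36.1% and 35.7% outside per the authors' deposited table. Vim was also low in clusters 3 and 14, at 0.403 and 0.356 times the mean of all cells. There only 1 gene of the list was lower, Id2 in cluster 3 and Id3 in cluster 14 (3.01% and 9.19% of table genes listed lower). Low Vim thus did not go with all 3 Id genes lower in each cluster. Id genes are targets of BMP more than of TGF-beta signalling.

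Transcription factors of mesenchymal transition were scarce in the table, with 5 of 18 listed and 5 entries in all, each higher. Cluster 10, where 6.85% of table genes were listed higher, had 3 of them, Tbx18 of epicardium and paraxial mesoderm at 3.42-fold, Tcf12 at 1.90-fold and Twist1 at 1.79-fold higher per the authors' deposited table. Outside cluster 10 they were in only 1.8%, 12.3% and 10.3% of cells per the authors' deposited table. The detection threshold thus left these 3 hardly any way to be listed lower. Collagen processing genes, of which 8 of 16 symbols were in the table, had 6 higher entries in cluster 14 and 4 in cluster 9, where 26.2% and 9.61% of table genes were listed higher, with the lysyl hydroxylase Plod2 at 4.16-fold and the chaperone Serpinh1 at 4.01-fold in cluster 14, and Serpinh1 at 2.09-fold in cluster 9, per the authors' deposited table. Matrix receptor and remodelling genes, 4 of 21 in the table, had 2 higher entries each in clusters 9 and 14, against the same 9.61% and 26.2%, counts too small to set them apart.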
